A study of Mus musculus with 9 samples.

Results

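Border macrophages live in the meninges and in the spaces around cerebral vessels, outside the brain tissue that microglia occupy. They take up particles, modified lipoproteins, glycoproteins and haemoglobin with a set of endocytic and scavenger receptors, and they share a growth factor receptor, Csf1r, with microglia. The 10 genes described here are known markers of these cells: the receptors Marco, Cd209f, Mrc1, Cd163, Stab1 and Lyve1, the secreted factors F13a1 and Pf4, the enzyme Cbr2 and the membrane protein Ms4a7. They were found by gene name among the 54532 genes of the deposited count table, and all 10 were present once. The set was chosen by a rule that names Marco and Cd209f as lower after Ant-134, so every difference between the groups given for these 10 genes is a description and not a test of them.

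The libraries came from the hippocampus of N4 Ube3a m-/p+ mice, which carry a maternal deletion of Ube3a, a model of Angelman syndrome, on a background backcrossed to 129Sv/Ev. The mice received 0.5 nmol of Ant-134, a cholesterol-tagged locked nucleic acid oligonucleotide antisense to miR-134 (5 mice), or the same amount of Scr, a scrambled oligonucleotide (4 mice), into the cerebral ventricle on postnatal day 21. All 9 mice carried the deletion, all 9 had audiogenic seizure tests on postnatal days 22, 24 and 26, and the hippocampus was taken on postnatal day 27, so no group without the deletion, the oligonucleotide or the seizure tests enters these values. For mice tested on these days the paper reports milder seizures after Ant-134 and a tendency to better survival. The oligonucleotide and the severity of the seizures therefore cannot be told apart in any difference given here. Each library is the poly-A RNA of 1 homogenised hippocampus of the injected side of 1 mouse perfused with saline, so the replicates are separate animals, and their sexes were not recorded for molecular work.

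Between 28583298 and 41978113 reads were counted on genes in each library, and 3 counts, taken as the detection floor, correspond to between 0.0709 and 0.107 CPM, which is counts scaled to a common library size. Without molecular identifiers this floor reflects counting error alone. Hippocampal neuron genes were abundant in both groups, with a summed level of the 10 genes in that list from 4158 to 4526 CPM in Ant-134 and from 4042 to 4222 CPM in Scr. Ube3a, the gene deleted on the maternal allele in both groups, measured 90.2 ± 6.26 CPM (SD, n = 5) in Ant-134 and 92.4 ± 4.81 CPM (SD, n = 4) in Scr. Mirg, a non-coding transcript of the cluster that holds miR-134, measured 35.7 ± 2.20 CPM and 36.3 ± 3.23 CPM, and poly-A libraries do not measure the inhibition of a mature miRNA. Over the 19782 genes tested with edgeR's quasi-likelihood test, 533 genes were lower and 294 higher in Ant-134 at an unadjusted p under 0.05, with 194 higher when Scr replicate 3 was left out, and 0 passed after Benjamini-Hochberg adjustment, where the smallest value was 0.0900. That 0 depends on the libraries and the filter, since 17 lower genes passed adjustment without Ant-134 replicate 1, 1 each without Ant-134 replicate 2, 3 or 4, and 14 without a filter. DESeq2 gave 622 lower and 405 higher genes before adjustment, and 12 and 4 after it.

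The microRNA that Ant-134 binds is shown first, since its seed defines the sites that could be looked for in the transcripts of the 10 genes. The mature sequence is from RefSeq (GRCm38.p6, chr12:109734145-109734166, plus strand), and the capitals mark the seed, bases 2 to 8.
mmu-miR-134-5p: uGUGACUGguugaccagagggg
A match to CAGTCAC or AGTCACA was looked for in the longest annotated 3′ UTR of each gene. It was found in 1 of the 10 genes, against 19.5% of the 15279 tested genes with an annotated 3′ UTR. That gene was Cd209f, whose 3′ UTR of 321 bases holds 1 match, AGTCACA, from base 17, in capitals below with the 10 bases on each side.
Cd209f: gtgctcccctAGTCACAcaggcaactt
The 3′ UTRs of the other 9 genes, which are between 121 and 1587 bases long, hold 0 matches, Marco among them. A match is a description of the sequence and not of binding.

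Marco and Cd209f were the 2 genes for which no Ant-134 library reached the lowest Scr library. Counted by the rule applied to all genes, and as a description only, 4 of the 10 genes (Marco, Cd209f, Ms4a7 and Stab1) lay past the edgeR threshold on the lower side, 0 lay past it on the higher side, and the other 6 did not reach it. Cd163 lay past it on the higher side without Ant-134 replicate 4. Of all genes tested, 4.18% lay past it, 2.69% lower and 1.49% higher. Marco and Cd209f were 2 of 10 whose groups did not overlap with Ant-134 lower, against 0.895% of all genes, and 0 of 10 did not overlap in the other direction, against 0.647%. The median log2 fold change of the 10 genes was -0.16, with 7 lower and 3 higher, beside a median of 0.0026 over all genes tested, of which 48.8% were lower. Nothing is read from these counts about the set, because the set was selected on the same contrast, and Cd209f passed the filter on low counts only through the Scr group, where it was higher. In bulk tissue, fewer cells of a type and less RNA per cell cannot be told apart.

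**Figure D1:**
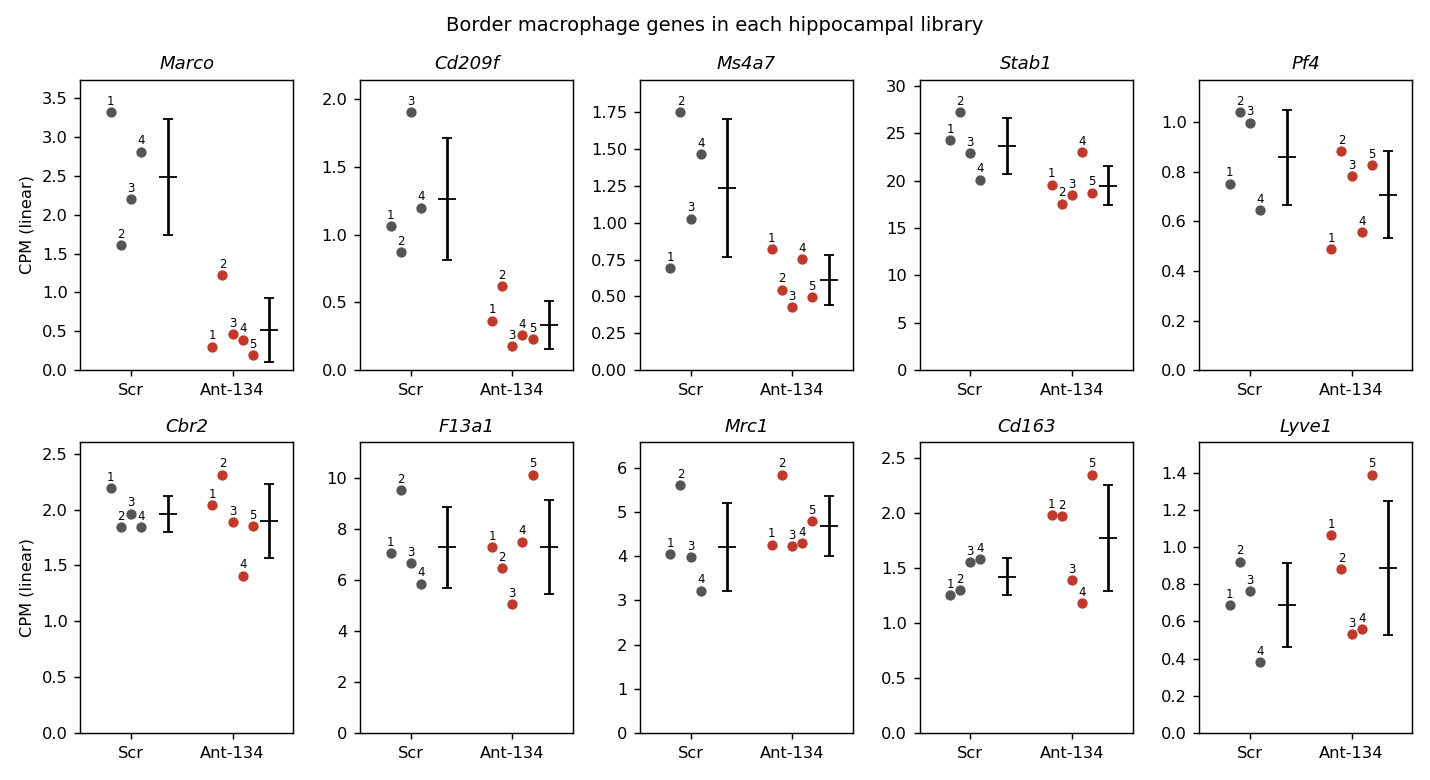
CPM of each gene (linear axes from 0) in the 4 Scr libraries (grey) and the 5 Ant-134 libraries (red), numbered by replicate, with bars for the mean and SD of each group and genes ordered by log2 fold change. For Marco and Cd209f every red point lies under every grey point, whereas the groups overlap for the other 8 genes.

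Marco (ENSMUSG00000026390, GRCm38 chr1:120474538-120505024, minus strand) encodes a class A scavenger receptor that binds bacteria and unopsonised particles. It measured 0.305, 1.22, 0.463, 0.393 and 0.199 CPM in Ant-134 replicates 1 to 5, from 6 to 47 counts. In Scr replicates 1 to 4 it measured 3.32, 1.61, 2.20 and 2.81 CPM, from 68 to 106 counts. Ant-134 replicate 2 was the highest of its group and Scr replicate 2 the lowest of its own, so these 2 libraries set the gap between the groups. The mean was 0.516 ± 0.407 CPM (SD, n = 5) in Ant-134 and 2.49 ± 0.743 CPM (SD, n = 4) in Scr, and the fitted log2 fold change was -2.21 (SE 0.42), which is 4.62-fold lower. Without Ant-134 replicate 2 the log2 fold change was -2.86, and without Ant-134 replicate 5 it was -2.01, the lowest and highest values of the 9 fits that each left out 1 library.

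Cd209f (ENSMUSG00000051906, chr8:4102787-4105835, minus strand) encodes a C-type lectin of the family of DC-SIGN, receptors that bind mannose- and fucose-rich glycans. Its CPM was 0.366, 0.624, 0.178, 0.262 and 0.232 in Ant-134, from 5 to 24 counts, and 1.07, 0.875, 1.91 and 1.20 in Scr, from 34 to 65 counts. As for Marco, Ant-134 replicate 2 was the highest and Scr replicate 2 the lowest of its group. The means were 0.332 ± 0.177 and 1.26 ± 0.450 CPM, and the log2 fold change was -1.87 (SE 0.35), with a range from -2.25 without Ant-134 replicate 2 to -1.60 without Scr replicate 3. Marco and Cd209f were expressed at few counts in Ant-134, and neither has 10 counts in every library, so both drop out under that stricter filter.

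Of the 50-base sequences of Cd209f transcripts, 29.8% also occur in Cd209g, a neighbouring member of the same family, so reads of the 2 genes can be confused and their values are uncertain as single genes. Cd209g had 3, 27, 3, 5 and 8 counts in Ant-134 and 11, 30, 82 and 49 counts in Scr, and its log2 fold change was -2.12 (SE 0.66), given without a test because it can share reads with Cd209f and passed the filter on low counts through the Scr group. Added together, Cd209f and Cd209g had 15, 51, 8, 13 and 15 counts in Ant-134 and 45, 67, 147 and 90 counts in Scr. On the CPM scale this sum was between 0.285 and 1.33 in Ant-134 and between 1.41 and 4.31 in Scr. Cd209f was chosen for its difference, so the narrow gap of the sum is only a description. Cd209g alone overlapped between the groups, with 0.0914 to 0.702 CPM in Ant-134 and 0.345 to 2.41 CPM in Scr. The remaining members of the family were near 0: Cd209a, Cd209b and Cd209c had at most 4 counts in a library, Cd209d at most 5, and Cd209e was at 0 in all 9.

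Ms4a7, a four-transmembrane protein of the MS4A family that marks border macrophages over microglia, was the other gene with a large difference (ENSMUSG00000024672, chr19:11321039-11336146, minus strand). It measured 0.823, 0.546, 0.427, 0.753 and 0.496 CPM in Ant-134 and 0.689, 1.75, 1.03 and 1.46 CPM in Scr. Scr replicate 1 lay inside the Ant-134 range, so the groups overlapped. The means were 0.609 ± 0.170 and 1.23 ± 0.468 CPM and the log2 fold change was -1.02 (SE 0.30), from -1.21 without Scr replicate 1 to -0.79 without Scr replicate 2.

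Stab1 encodes stabilin-1, an endocytic receptor for modified lipoproteins and matrix fragments (ENSMUSG00000042286, chr14:31139013-31168641, minus strand). Its CPM was 19.6, 17.6, 18.5, 23.0 and 18.8 in Ant-134 and 24.3, 27.3, 22.9 and 20.1 in Scr, from at least 520 counts in every library. Ant-134 replicate 4 lay above the 2 lower Scr libraries, replicates 3 and 4. The log2 fold change was -0.28 (SE 0.093), a difference of 1.22-fold, with means of 19.5 ± 2.08 and 23.7 ± 2.97 CPM. Stab1 overlaps Nt5dc2 on the opposite strand by 112 bases, and the strand setting of the counting is not given in the sources used here, so a small part of its reads cannot be assigned with certainty.

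The mannose receptor gene Mrc1, the marker most often used for perivascular and meningeal macrophages, did not share this difference (ENSMUSG00000026712, chr2:14229392-14332057, plus strand). It measured 4.27, 5.85, 4.24, 4.29 and 4.80 CPM in Ant-134 and 4.04, 5.60, 3.99 and 3.22 CPM in Scr. All but Scr replicate 2 of the Scr libraries lay under every Ant-134 library, and the log2 fold change was 0.15 (SE 0.16). Cd163, the receptor for haptoglobin-bound haemoglobin (ENSMUSG00000008845, chr6:124304656-124330527, plus strand), measured 1.98, 1.98, 1.39, 1.18 and 2.35 CPM in Ant-134 and 1.25, 1.30, 1.55 and 1.58 CPM in Scr, with a log2 fold change of 0.32 (SE 0.21). The Scr values lay within the Ant-134 range, which was wider. Lyve1, a hyaluronan receptor that also marks lymphatic vessels (ENSMUSG00000030787, chr7:110850607-110863239, minus strand), measured 1.07, 0.884, 0.534, 0.557 and 1.39 CPM in Ant-134 and 0.689, 0.922, 0.763 and 0.381 CPM in Scr, with a log2 fold change of 0.36 (SE 0.33). For these 3 receptors the fitted value was above 0 with each library left out in turn, from 0.044 to 0.54.

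F13a1, the A subunit of the coagulation factor XIII transglutaminase (ENSMUSG00000039109, chr13:36867178-37050244, minus strand), was at 7.29 ± 1.85 CPM (SD, n = 5) in Ant-134 and 7.27 ± 1.58 CPM (SD, n = 4) in Scr. Its log2 fold change was -0.00 (SE 0.19), and its sign changed in 7 of 20 settings. Pf4, the chemokine platelet factor 4 (ENSMUSG00000029373, chr5:90772435-90773383, plus strand), was at 0.708 ± 0.175 and 0.859 ± 0.191 CPM, with a log2 fold change of -0.28 (SE 0.26). Cbr2, a carbonyl reductase (ENSMUSG00000025150, chr11:120729489-120732114, minus strand), was at 1.90 ± 0.330 and 1.96 ± 0.165 CPM, with a log2 fold change of -0.04 (SE 0.17). Cbr2 shares 12.1% of its 50-base sequences with the gene model Gm11771, so its value carries the same kind of uncertainty as that of Cd209f. For these 3 genes the difference was smaller than the SD of either group.

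**Figure D2:**
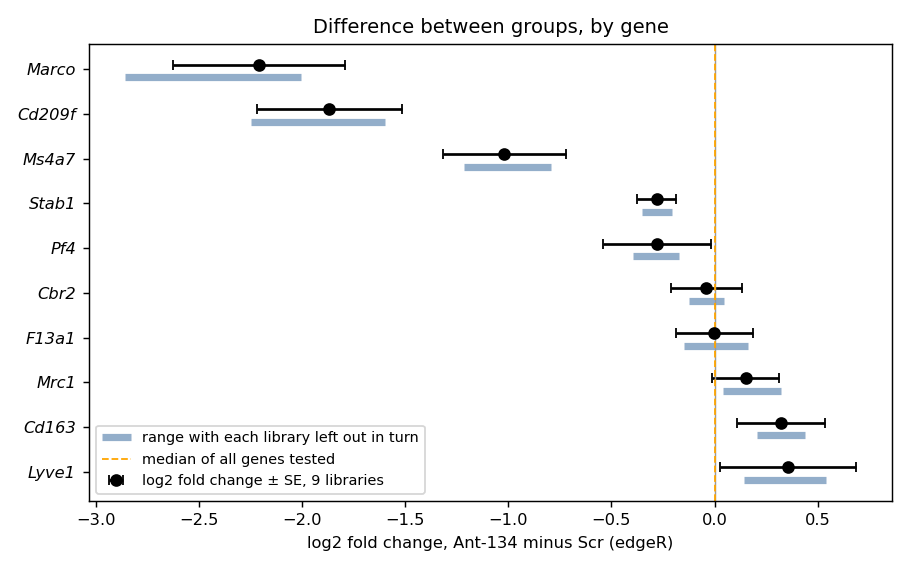
Log2 fold change of each gene, Ant-134 minus Scr, with its SE (points and black bars, edgeR, 9 libraries), and the range when each library was left out in turn (blue bars). The dashed line is the median of all genes tested, 0.0026. Marco, Cd209f and Ms4a7 lie between -2.21 and -1.02, and the other 7 genes between -0.28 and 0.36.

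The summed level of the 10 genes was 38.2 ± 2.89 CPM in Ant-134 and 45.1 ± 5.19 CPM in Scr. Marco and Cd209f together gave 0.848 ± 0.566 CPM and 3.75 ± 0.858 CPM, with ranges of 0.430 to 1.85 and 2.48 to 4.39 CPM. That these ranges lie apart follows from the 2 genes, each of which was already separate, and adds nothing to them. The other 8 genes gave 37.3 ± 2.98 CPM in Ant-134 and 41.3 ± 5.87 CPM in Scr, with ranges of 32.8 to 40.6 and 35.1 to 49.2 CPM that overlapped.

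Within a library, Marco was also set against other genes of the same cells. There were 4.14 to 20.9 counts of Marco per 100 counts of Mrc1 in Ant-134 and 28.7 to 87.3 in Scr. The gap between these ranges is a description only, since Marco was chosen for its difference. For Cd209f the same ratio was 4.20 to 10.7 in Ant-134 and 15.6 to 47.8 in Scr. Against Stab1, which was itself lower in Ant-134, the ranges met: Marco gave 1.06 to 6.94 counts per 100 in Ant-134 and 5.90 to 14.0 in Scr, and Cd209f gave 0.962 to 3.55 and 3.21 to 8.31. Ms4a7 overlapped between the groups against both Mrc1, with 9.33 to 19.3 and 17.1 to 45.5, and Stab1, with 2.31 to 4.20 and 2.84 to 7.28. The ranges of the ratio of Marco to Cd209f overlapped between the groups, with 83.3 to 260 counts of Marco per 100 of Cd209f in Ant-134 and 115 to 312 in Scr.

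**Figure D3:**
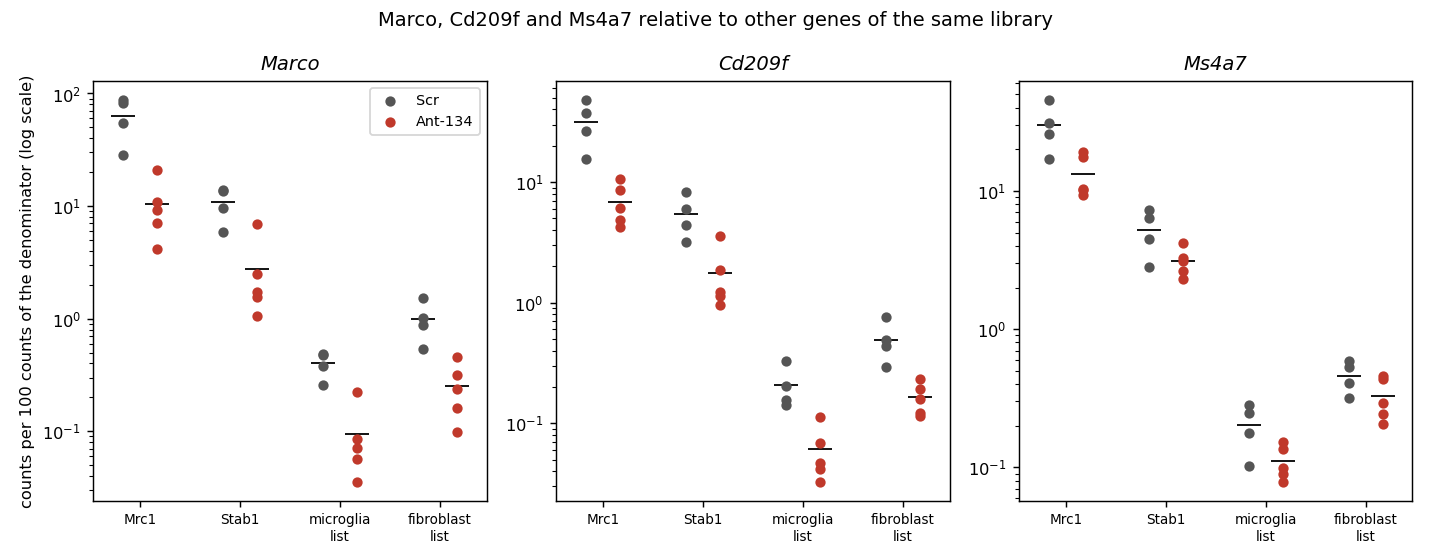
Counts of Marco, Cd209f and Ms4a7 per 100 counts of Mrc1, of Stab1, of the 20 microglia genes and of the 15 meningeal fibroblast genes of the same library (log axes), with 1 point per library and a line at each group mean. Against Mrc1, microglia and fibroblast counts, no Ant-134 library reached a Scr library for Marco or Cd209f, and against Stab1 the groups met.

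Levels can be compared between genes only per length, and the deposited FPKM values were used for this. Over the 9 libraries of both groups pooled, Stab1 had the highest mean FPKM at 2.05 and Ms4a7 the lowest at 0.197. Between them the order was Cbr2 at 1.44, F13a1 at 1.07, Pf4 at 1.06, Marco at 0.716, Mrc1 at 0.696, Cd209f at 0.371, Cd163 at 0.294 and Lyve1 at 0.271. Among the genes tested, Stab1 stood at the 40.8th percentile of mean FPKM and Ms4a7 at the 7.25th, so these are low transcripts in a whole hippocampus. No pair of neighbours in this order was separated in all 9 libraries: Stab1 exceeded Cbr2 in 8 of 9 libraries and Cbr2 exceeded F13a1 in 6. F13a1 exceeded Pf4 in 4 of 9, and Marco exceeded Mrc1 in 3 of 9. The places of Marco, Cd209f and Ms4a7 depend on the group. The mean FPKM of Marco was 0.266 ± 0.209 in Ant-134 and 1.28 ± 0.385 in Scr, whereas Mrc1 had 0.729 ± 0.108 and 0.654 ± 0.154. Cd209f had 0.166 in Ant-134 and 0.628 in Scr, and Ms4a7, the lowest in Ant-134 at 0.136, lay in Scr at 0.274, above Cd163 at 0.258 and Lyve1 at 0.233.

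**Figure D4:**
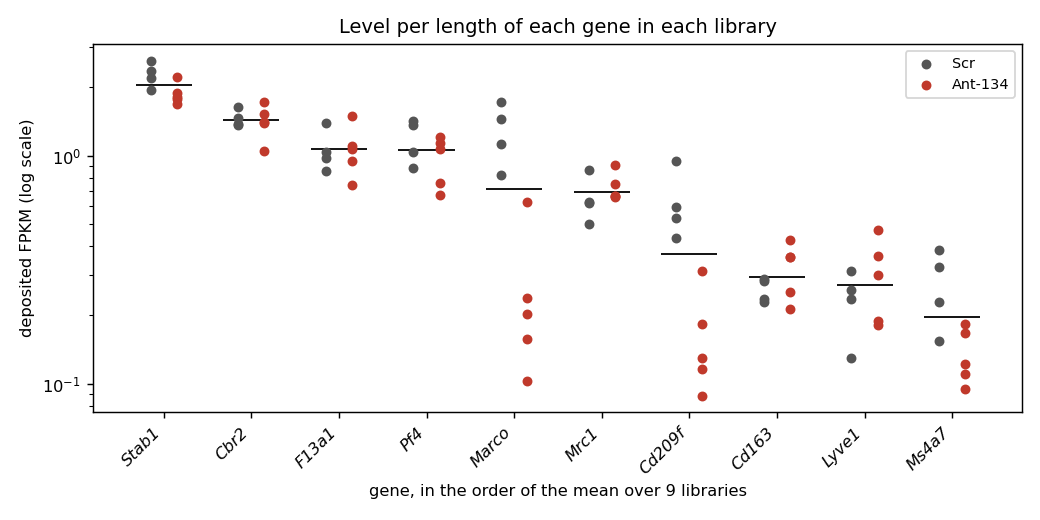
Deposited FPKM (log axis) of each gene in each library, Scr in grey and Ant-134 in red, with a line at the mean of the 9 libraries and genes in the order of that mean. Marco and Cd209f spread over the widest range, and the Marco points run from 0.103 in an Ant-134 library to 1.71 in a Scr library.

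The 10 genes did not rise and fall as 1 block among the mice of a group. After centring log2 CPM within each group, the 45 pairs of genes had a median Pearson r of 0.15 over 9 libraries, with 9 pairs above 0.5 and 13 below 0. The highest values were 0.78 for Lyve1 with F13a1 (Spearman rho 0.77) and 0.71 for Mrc1 with Pf4 (rho 0.82). The lowest was -0.62 for Cd163 with Stab1 (rho -0.47), followed by -0.61 for Marco with F13a1 (rho -0.73). Marco and Cd209f had r = 0.56 and rho = 0.40, and without the 2 libraries farthest from the median r was -0.088, so that value rests on those libraries. These are descriptions over 9 libraries that share depth and dissection, several of them on counts in single or double digits.

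**Figure D5:**
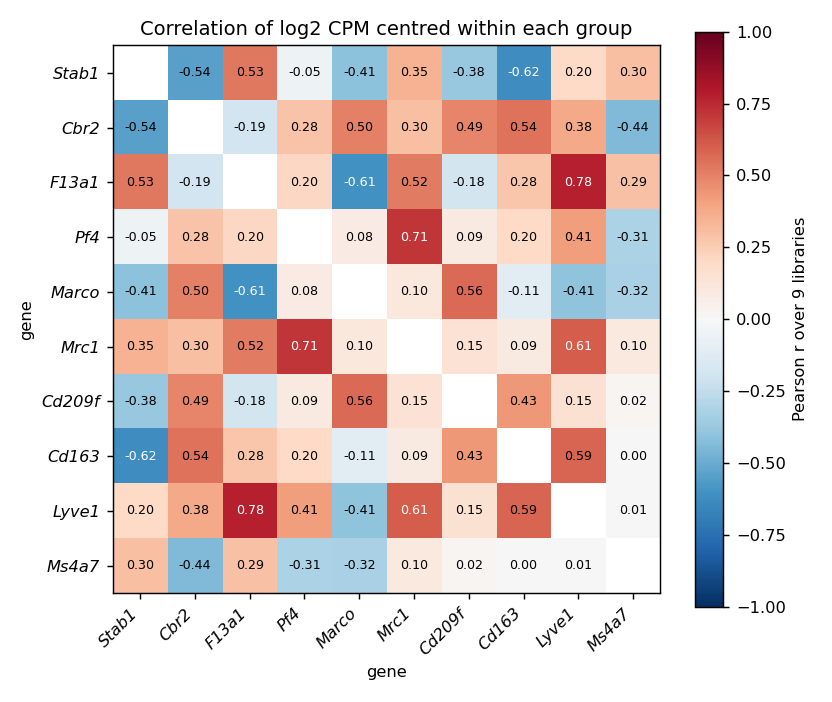
Pearson r between genes of log2 CPM centred within each group, over 9 libraries, on a scale from -1 (blue) to 1 (red). Lyve1, F13a1, Mrc1 and Pf4 hold the 2 highest values, and Marco is below 0 with F13a1, Lyve1, Stab1, Ms4a7 and Cd163.

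Single libraries led several genes at once. Scr replicate 2 was the highest of its group for 6 of the 10 genes (Mrc1, Lyve1, Stab1, F13a1, Pf4 and Ms4a7) and the lowest for Marco, Cd209f and Cbr2. Scr replicate 4 was the lowest for 5 genes, and in Ant-134 replicate 3 was the lowest for 5 and replicate 2 the highest for 5, Marco and Cd209f among them. The genes outside the set that most resembled the mean of the 10, by r of the same centred values over 16020 genes with a mean of at least 1 CPM, were Lilr4b at 0.97, AC173344.1 at 0.95, Ctsa at 0.94, Eln at 0.94, Airn and Best1 at 0.93, and Foxd1, Nup98, Gm8186 and Kdelr1 at 0.92. Their mean levels ran from 1.46 CPM for Airn to 94.2 CPM for Ctsa. Without Ant-134 replicates 2 and 3, the libraries farthest from the median, Lilr4b had r = 0.90 and Eln 0.77, over libraries also used to choose them. They are the highest of 16020 candidates over 9 libraries. The r that unrelated genes would reach in such a search was not computed, so no link to the 10 genes is read from it.

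Promoter sequences are shown for Marco and Cd209f, which were lower together, and for Mrc1, which was not. They are from RefSeq (GRCm38.p6), run from 250 bases before to 50 bases after the start that RefSeq gives, which for Cd209f and Mrc1 lies inside the gene of the deposited table, and were held for 9 of the 10 genes in 11 entries. The capitals mark GAGGAA, the core that PU.1, the transcription factor common to macrophages, is known to bind, in either orientation.
Marco, chr1:120504975-120505274, minus strand: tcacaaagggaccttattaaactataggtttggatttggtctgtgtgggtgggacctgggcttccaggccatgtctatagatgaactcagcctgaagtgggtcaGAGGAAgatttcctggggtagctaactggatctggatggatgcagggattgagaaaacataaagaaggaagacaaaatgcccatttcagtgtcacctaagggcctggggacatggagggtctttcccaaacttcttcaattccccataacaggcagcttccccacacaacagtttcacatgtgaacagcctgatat
Cd209f, chr8:4105715-4106014, minus strand: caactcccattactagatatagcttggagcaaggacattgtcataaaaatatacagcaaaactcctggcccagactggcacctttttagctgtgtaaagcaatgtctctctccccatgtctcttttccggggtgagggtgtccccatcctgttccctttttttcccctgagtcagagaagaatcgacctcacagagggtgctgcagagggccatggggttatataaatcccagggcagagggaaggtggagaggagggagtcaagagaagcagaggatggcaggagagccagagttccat
Mrc1, chr2:14229164-14229463, plus strand: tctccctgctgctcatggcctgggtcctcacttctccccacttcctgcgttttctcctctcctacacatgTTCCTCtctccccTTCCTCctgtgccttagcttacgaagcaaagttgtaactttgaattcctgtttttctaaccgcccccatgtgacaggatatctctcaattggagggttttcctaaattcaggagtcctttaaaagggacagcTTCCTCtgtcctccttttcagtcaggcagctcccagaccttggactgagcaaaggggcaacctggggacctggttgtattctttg
The Marco window holds GAGGAA once, 146 bases before the start, the Cd209f window 0 times and the Mrc1 window 3 times. Of the 9 genes with an entry, all but Cd163 and Cd209f hold it in at least 1 window. On both strands GAGGAA occurs in 28.3% of the 32851 promoter entries. TGCTGA, the half-site of MAF factors, occurs in 19.5% of them, in the windows of Stab1 and Cbr2 and in none of the other 7 genes with an entry. The element of interferon regulatory factors, a pair of GAAA repeats, occurs in 3.44% of them and in none of the 9 genes. Marco and Cd209f thus shared none of these 3 motifs within the window, which says only that the letters are not there.

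Among 20 other genes of border macrophages, 14 passed the filter on low counts, and 9 of them were lower and 5 higher, with a median log2 fold change of -0.06. That median was 0.03 without Ant-134 replicate 3, -0.16 without Ant-134 replicate 2, -0.11 without Ant-134 replicate 1, -0.10 without Scr replicate 4, -0.04 without Scr replicate 2 and -0.03 without Scr replicate 3. Of these 14, Clec12a, an inhibitory C-type lectin receptor, passed the unadjusted threshold. It measured 1.19, 2.13, 0.712, 1.57 and 1.09 CPM in Ant-134 and 2.95, 2.93, 2.08 and 4.04 CPM in Scr, with a log2 fold change of -1.15 (SE 0.27, edgeR unadjusted p = 0.00086, adjusted p = 0.705). Ant-134 replicate 2 lay just above Scr replicate 3, so the groups met, and the call held in all 9 fits without 1 library. Without Ant-134 replicate 4, Scr replicate 1 or Scr replicate 3, 2 genes of the list passed, as with the Y-linked covariate, and 3 passed with the replicate number as a block. The 2 most abundant genes of the list were Gas6, a ligand of receptors for apoptotic cells, with a log2 fold change of -0.04 (SE 0.11), and Tgfbi, a matrix protein, with -0.09 (SE 0.21). Maf, a transcription factor of these macrophages, had -0.08, and the sialic acid receptor Siglec1 had -0.51 at an edgeR unadjusted p of 0.220. How much of the RNA of Gas6, Tgfbi and Maf in a whole hippocampus comes from border macrophages was not tested. Their values, and the median of the list, may therefore not describe those cells. Several genes of this list were at or near the floor in every library: Vsig4 was at 0 in all 9, Timd4 had at most 3 counts and Ccl24 at most 2. Folr2, Ccl8 and Mgl2, with at most 13, 19 and 11 counts in a library, also did not pass the filter.

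Of 18 other scavenger receptor genes, 16 passed the filter, 13 of them lower and 3 higher, with a median of -0.11, which was -0.06 without Scr replicate 3 and -0.07 without Scr replicate 1. In edgeR, 3 were lower at an unadjusted p under 0.05 and 0 after adjustment. Cxcl16, a scavenger receptor for oxidised lipoprotein that is also a chemokine, went from 4.93 ± 0.717 CPM in Scr to 3.26 ± 0.808 in Ant-134, a log2 fold change of -0.59 (SE 0.17). Colec12, a collectin of the vessel wall, was at -0.40 (SE 0.15) and Scarf2, a scavenger receptor expressed by endothelium, at -0.33 (SE 0.12). The calls of Colec12 and Scarf2 each held in 8 of the 9 fits without 1 library, and that of Cxcl16 in all 9. Without Scr replicate 2 or Scr replicate 3, 2 genes of the list were called. The abundant receptors Lrp1 and Scarb2, which many brain cells express, were at -0.04 (SE 0.046) and -0.01 (SE 0.048).

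Genes of the pathways on which Cd163 and Lyve1 act are given beside the 4.18% of all genes that were called. All 11 genes of haem and iron handling passed the filter, 0 of them reached an unadjusted p under 0.05 in edgeR or in DESeq2, while 1 was called in edgeR without Ant-134 replicate 4. Their median was -0.01 and changed sign between -0.04 without Ant-134 replicate 4 and 0.02 without Scr replicate 3. Of the 9 hyaluronan genes measured, the synthase Has3 was higher at 0.22 (SE 0.10, edgeR unadjusted p = 0.0455), a call that held in 3 of the 9 fits without 1 library, those without Ant-134 replicate 4, Scr replicate 1 or Scr replicate 2. Among 12 growth factors, receptors and transcription factors of macrophages, Tgfb1, Csf1 and Csf1r were lower, at -0.35 (SE 0.087), -0.23 (SE 0.087) and -0.23 (SE 0.061), at edgeR unadjusted p values of 0.0012, 0.019 and 0.0022. Il34, the neuronal ligand of Csf1r, was at 0.04 (SE 0.049), and 0 of the 12 passed adjustment. Without Scr replicate 4, 5 of the 12 were called before adjustment. The call of Csf1 held in 7 of the 9 fits without 1 library, and those of Tgfb1 and Csf1r in all 9.

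Markers of other cells were measured beside these genes. The 20 microglia genes had a median of -0.18, 19 were lower and 7 of them, among them C1qa, C1qb, C1qc, Trem2, Aif1 and Selplg, passed the unadjusted threshold in edgeR. Their summed level was 536 to 556 CPM in Ant-134 and 582 to 679 CPM in Scr. Without Scr replicate 1 the median was -0.12 and 5 were called. The 15 meningeal fibroblast genes, whose cells lie beside meningeal macrophages, had a median of -0.44, and 9 of the 15, all of which were lower, passed (Col1a1, Col1a2, Lum, Slc6a13, Slc22a6, Igf2, Ranbp3l, Fmod and Ogn), with sums of 146 to 267 and 218 to 300 CPM. Without Scr replicate 2 or Scr replicate 4 only 3 of the 15 passed, and without Ant-134 replicate 3 or 4 only 5. The most abundant, Dcn, measured 42.6 ± 10.6 and 55.1 ± 8.08 CPM. Marco was at 0.0979 to 0.457 counts per 100 fibroblast counts in Ant-134 and 0.536 to 1.52 in Scr, and at 0.0357 to 0.221 per 100 microglia counts against 0.259 to 0.489. Cd209f was at 0.114 to 0.233 per 100 fibroblast counts against 0.292 to 0.762. These ratios keep the differences by which the 2 genes were chosen, so the gaps between the groups are a description and no further support. Mrc1 was at 2.19 to 2.89 per 100 fibroblast counts in Ant-134 and 1.17 to 1.87 in Scr, which is the opposite order.

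Other cells that can express single genes of the set were measured through their own markers, and their part in the results was not tested. Pf4 and F13a1 are also platelet genes: 5 of the 11 platelet genes passed the filter, with sums of 6.75 to 8.44 CPM in Ant-134 and 6.93 to 11.1 CPM in Scr, and the defining genes Ppbp and Gp6 had at most 2 and 1 counts in a library. Of these platelet genes Treml1 was at 0.251 ± 0.0707 CPM in Ant-134 and 0.516 ± 0.152 CPM in Scr, given without a test because it passed the filter on low counts through the Scr group. Lyve1 and Stab1 also mark lymphatic endothelium, for which 5 of 7 genes passed the filter. Ccl21a and Mmrn1, which did not, had at most 1 and 8 counts in a library. Of this list Thy1, which neurons also express, was called higher at 0.09 (SE 0.039). That call held in 4 of the 9 fits, those without Ant-134 replicate 1, 2 or 4 or Scr replicate 4. All 12 genes of blood vessel endothelium were lower, with a median of -0.14 (-0.07 without Scr replicate 2) and sums of 318 to 365 and 346 to 429 CPM, and Itm2a was called at -0.23 (SE 0.071). This list had 2 called genes without Ant-134 replicate 3 or 5, and 3 without Ant-134 replicate 1 or Scr replicate 4. Choroid plexus genes ranged from 75.5 to 2698 CPM in Ant-134 and from 89.1 to 2108 CPM in Scr with 0 of 12 past the threshold in edgeR or DESeq2 and 1 in edgeR without Ant-134 replicate 1, so the amount of choroid plexus differed widely between libraries in both groups. Its leading gene Ttr had a log2 fold change of -0.23 (SE 1.39).

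Blood genes were also compared because residual blood brings monocytes and platelets. The 5 erythrocyte genes summed to 69.0 to 403 CPM in Ant-134 and 44.0 to 91.7 CPM in Scr, with 0 past the threshold in edgeR or DESeq2. All 5 had fitted values above 0, with a median log2 fold change of 1.01 that was 0.23 without Ant-134 replicate 3. Of 9 tested monocyte and neutrophil genes, Chil3 was lower at -0.59 (SE 0.24), a call that was lost without Ant-134 replicate 2, 3 or 4, Scr replicate 2 or Scr replicate 3, and sums were 57.9 to 219 and 105 to 187 CPM. Among 10 genes of antigen presentation by MHC class II, Itgax was lower at -0.81 (SE 0.27), and Cd74, the most abundant, was at -0.33 (SE 0.41). Among hippocampal neuron genes Snap25 was higher at 0.12 (SE 0.052), which held without Ant-134 replicate 2, Ant-134 replicate 5 or Scr replicate 2 and was lost in the other 6 fits, and Slc17a7 was at 0.02 (SE 0.040). Y-linked genes were near 0 in Ant-134 replicates 1 and 4 and in Scr replicate 3, and with their summed level as a covariate the log2 fold changes of Marco and Cd209f were -2.18 and -1.88.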

How the data were processed

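Poly-A RNA-seq libraries of 9 hippocampi were used, with groups and replicate numbers from the sample labels. Per the study's methods and its processing notes, the authors used CASAVA 1.8 for base calling, aligned reads to GRCm38 with HISAT2 2.0.5 and counted them on genes with featureCounts 1.5.0-p3. The strand setting is not given in the sources used here. They deposited raw counts per gene, and FPKM values, which scale counts to gene length and library total. Every value column was matched to 1 sample, and 0 were left without one.

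The counts were tested in edgeR 4.0.16 under R 4.3.3 (filterByExpr with a minimum count of 10, TMM, robust quasi-likelihood test, no covariate). The call was an unadjusted p under 0.05, the threshold of the study, and Benjamini-Hochberg values over all 19782 genes tested were also taken. CPM are of TMM-scaled libraries. Alternatives tried were DESeq2 1.42.0 on unfiltered genes, other size factors, other filters, no robust estimation, a replicate block, a Y-linked covariate, limma 3.58.1 with pseudocounts of 1 and 0.1 on log2 FPKM (mean FPKM of at least 0.1, or any value above 0), and leaving out each library. The code was tested on simulated data. Replicate libraries differed by more than counting noise in every pair (chi-square per gene from 8.37 to 20.6).

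The 10 genes and the 16 other lists were chosen with earlier results of these data known. The rule for naming covered the 10 genes, of each list the genes under the threshold and the 2 most abundant, the 10 genes most alike, Ube3a and Mirg. For many lists the text does not name both or either of the 2 most abundant. A gene within this rule is not reported here. The remaining genes named were chosen after their values were seen. Positions are those of the deposited table, 3′ UTRs and transcripts are from GENCODE M21, and promoters and the miRNA from RefSeq.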

Additional observations from a re-analysis of the deposited data

Results flagged for a closer look

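In 5 of the 54 groups of values looked at, counting each of the 10 genes and each list in both groups, 1 library stood far from the others, and chance gives about 1 in 20, which is 2.7. The Marco level of 1.22 CPM in Ant-134 replicate 2 stood above the 0.199 to 0.463 CPM of the other 4 libraries of that group. Choroid plexus genes summed to 2698 CPM in Ant-134 replicate 1, against 75.5 to 706 CPM. Erythrocyte genes summed to 403 CPM in Ant-134 replicate 3, against 69.0 to 116 CPM. Genes of antigen presentation by MHC class II summed to 157 CPM in Scr replicate 4, against 75.9 to 87.7 CPM. Hippocampal neuron genes summed to 4042 CPM in Scr replicate 3, the lowest, against 4192 to 4222 CPM.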

How the results depend on the processing

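The median log2 fold change of the 10 genes, -0.16, was below 0 under all 19 alternatives. With at least 10 counts in every library Marco and Cd209f give no value, and the median of the remaining 8 genes was -0.02. Over all genes, where 294 were higher and 533 lower, the counts were 564 and 1211 without a filter, 579 and 931 with limma on every gene above 0 FPKM, and 450 and 471 higher with limma on log2(FPKM + 1) and log2(FPKM + 0.1). With each library left out in turn they ran from 194 (without Scr replicate 3) to 386 higher and from 435 to 704 lower. Same-numbered libraries did not deviate together (r from -0.115 to 0.012), no Scr library correlated best with the Ant-134 library of its own number, and the numbers do not pair the mice. With a replicate block the counts were 342 and 466 (2 lower after adjustment), the median of the 10 genes was -0.20, and Marco and Cd209f were at -2.09 and -1.76.

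The size of the largest differences depends on the pseudocount, since these genes lie near or under 1 FPKM. On log2(FPKM + 1), Marco was at -0.85, Cd209f at -0.48 and Ms4a7 at -0.16, and on log2(FPKM + 0.1) at -2.02, -1.46 and -0.64. The sign of F13a1 changed in 7 of 20 settings and that of Cbr2 in 2 of 20, and that of the other 8 genes in none of those run for them. Marco and Cd209f rest on as few as 6 and 5 counts in an Ant-134 library, and the smallest difference detectable at such counts was not tested.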
